A study of Mus musculus with 8 samples.

Results

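The regulators of mitochondrial biogenesis were taken as 10 genes, selected by symbol from the 43346 genes of the count table: the coactivators Ppargc1a, Ppargc1b and Perm1, the estrogen-related receptors Esrra, Esrrb and Esrrg, the nuclear receptor Ppara, the respiratory factors Nrf1 and Gabpa, and the mitochondrial transcription factor Tfam. All 10 were found, and all 10 passed the filter on low counts. RNA was sequenced from the cardiac ventricles of male C57BL/6 mice with no stated genetic modification. A group of 4 mice received 1000000 LLC1 cells, a mouse lung adenocarcinoma line, by injection at 7 weeks of age, and 4 control mice received the PBS vehicle. Hearts were taken 14 days later from both groups, so the comparison is between tumor-bearing and PBS-injected mice at a single time with a single tumor line.

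A cell makes new mitochondria by raising nuclear genes for the respiratory chain together with the genes that copy and transcribe mitochondrial DNA. PGC-1α and PGC-1β, the products of Ppargc1a and Ppargc1b, do not bind DNA themselves. They are recruited by the estrogen-related receptors, by PPARα and by the nuclear respiratory factors, which bind the promoters of respiratory chain and fatty acid oxidation genes and of Tfam, and Tfam protein then packages mitochondrial DNA and helps to start its transcription. In the heart, which draws most of its energy from fatty acids, this network is highly active, and Perm1 is a muscle-specific factor that acts with the PGC-1 coactivators and the estrogen-related receptors.

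The 2 members that rose in the tumor-bearing mice, Esrra and Esrrb, are shown first by the 250 bases before a start site, as listed by RefSeq on GRCm38.p6 and written 5′ to 3′ on the strand of the gene. Capitals mark a match to GCGCATGC, the element bound by nuclear respiratory factor NRF1, here on the opposite strand. The Esrra window is chr19:6921809-6922058 on the minus strand, and the Esrrb window is chr12:86360867-86361116 on the plus strand, the more upstream of its RefSeq start sites.
Esrra: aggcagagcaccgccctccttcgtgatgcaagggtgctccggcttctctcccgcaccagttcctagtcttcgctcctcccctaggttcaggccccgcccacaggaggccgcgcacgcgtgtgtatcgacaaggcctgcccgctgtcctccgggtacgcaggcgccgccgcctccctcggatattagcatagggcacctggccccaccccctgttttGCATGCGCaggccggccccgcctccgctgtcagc
Esrrb: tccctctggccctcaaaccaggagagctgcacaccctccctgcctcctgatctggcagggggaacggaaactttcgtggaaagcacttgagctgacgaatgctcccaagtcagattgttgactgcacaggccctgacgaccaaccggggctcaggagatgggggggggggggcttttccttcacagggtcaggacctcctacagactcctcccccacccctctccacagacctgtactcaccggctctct

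RefSeq windows of 300 bases, from 250 before the start site to 50 after it, were used for 9 of the 10 members, 14 windows in all. Ppargc1b was not searched. The 14 windows were searched on both strands for elements of the members' own network. The Esrra element lay at bases -34 to -27 from the start site. Outside Esrra, Ppara alone among the members searched held GCGCATGC, as an overlapping pair on the 2 strands between bases -31 and -22. The estrogen-related receptor element AAGGTCA was found only in Perm1, on the opposite strand at bases -202 to -196. CCGGAAGT, an element of the ETS family to which GABPα belongs, was found only in Tfam, at bases -47 to -40. These matches are shown within 30 bases, with the match in capitals: Perm1 at chr4:156215714-156215743 on the plus strand, Ppara at chr15:85735734-85735763 on the plus strand, and Tfam at chr10:71238073-71238102 on the minus strand.
Perm1: ggaatccggtgTGACCTTagctaatgccaa
Ppara: ggggctcggtgGCGCATGCGCgcggactag
Tfam: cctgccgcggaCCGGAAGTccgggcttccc

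Of the 32851 RefSeq windows of the same length, 2.71% held GCGCATGC, 4.72% held AAGGTCA and 3.89% held CCGGAAGT. No member window held the cAMP response element TGACGTCA, which was in 1.79% of all windows, or the PPAR direct repeat AGGTCANAGGTCA, which was in 0.0396% and shares the letters AGGTCA with the estrogen-related receptor element. The matches are a description of the letters in these windows, and binding was not measured.

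The libraries held 15342214 to 19747596 counts in the tumor-bearing mice and 12480706 to 16192158 in the PBS-injected mice, and the members had between 184 counts (Nrf1) and 8966 counts (Perm1) in a library. Levels are given as counts per 1000000 (CPM) after TMM scaling, and tumor-bearing and PBS-injected mice were compared by the quasi-likelihood test of edgeR across the 16111 genes tested, with FDR for the Benjamini-Hochberg adjusted p and a call at FDR under 0.05. The library of PBS 1-1 stood apart from the others on the second principal component, at 35.3 against -23.3 to 8.71. Values without it are given for marker sums and named genes where they moved a call or a value by much. Of the summed marker levels in CPM, the cardiomyocyte list lay higher in the tumor-bearing mice (117000 to 124000 against 106000 to 109000, with 2 of 10 markers called higher). Myh6, 1 of the 2 called, was its largest part, at a mean of 54330 against 45870 CPM. Actc1 and Ryr2 had log2 fold changes of -0.05 and -0.17, and the other 8 were positive. The sum, and the scaling to these markers used below, thus rest in large part on Myh6. The fibroblast list lay lower (988 to 1100 against 1110 to 1610, 5 of 8 called lower). The summed smooth muscle and pericyte list also lay lower (1290 to 1330 against 1390 to 1600, 0 of 8 called). Its largest parts were Rgs5 (mean 576.3 against 664.5 CPM) and Abcc9 (492 against 498.9 CPM). Myh11, Tagln and Cnn1 had log2 fold changes of -0.03, -0.003 and 0.09, and Acta2 one of -0.54. Endothelial (1170 to 1350 against 1280 to 1660, 2 of 10 called lower), leukocyte (249 to 310 against 275 to 399, 2 of 8 tested called lower and 1 higher) and dividing-cell lists (19.1 to 34 against 31.5 to 81.7, 4 of 5 tested called lower) overlapped. The lists hold 1 fibroblast and 2 dividing-cell markers that the study's own tables also name. Erythroid (1430 to 5180 against 1560 to 3100) and fat cell sums (29.8 to 34.1 against 25.4 to 30.7, with Ucp1 at 0) overlapped too. Without PBS 1-1, the PBS sums were 1480 to 1660 for endothelial, 356 to 399 for leukocyte and 25.4 to 26.8 for fat cell lists. Each of these was then separated from the tumor-bearing mice, while the dividing-cell and erythroid sums still overlapped. Skeletal muscle markers reached at most 2.49 with Myh4 at 0, and atrial markers at most 6.94 with Bmp10 at 0. The called fibroblast markers were Col1a1, Col1a2, Col3a1, Lum and Postn, and Dcn, Pdgfra and Tcf21 were not called (log2 fold changes 0.07, -0.07 and -0.21). In ventricular tissue, fewer cells of a type, less RNA per cell and lower levels of single genes cannot be told apart. The part of cell makeup in the results that follow was not tested beyond the marker-scaled values given.

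In the hearts of tumor-bearing mice, 2 of the 10 regulators were called higher and 0 were called lower. Esrra rose 1.19-fold and Esrrb 1.26-fold. Ppargc1a had a fold of 1.22 that did not pass the adjusted threshold. Across all genes tested, 4.12% were called higher and 4.61% lower, and among the 7562 genes with mean levels in the range of the members, 5.99% were called higher. An unadjusted p under 0.05 was reached by 3 of the 10 members, and by 4103 of the 16111 genes tested. The median log2 fold change was 0.04 over the members and -0.01 over all genes tested. Groups that did not overlap were found for 2 members, both higher in tumor-bearing mice, against 8.89% of all genes tested that were separated upward and 8.27% downward.

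**Figure D1:**
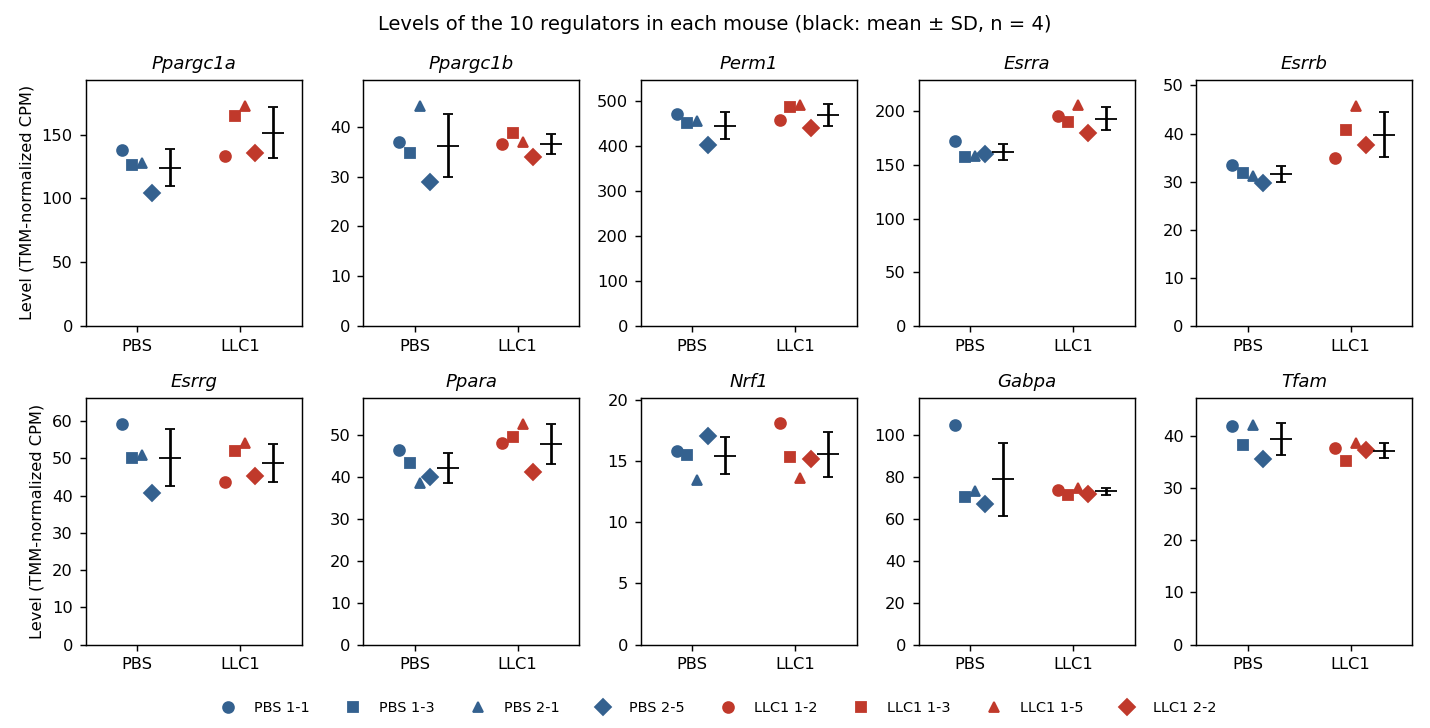
TMM-normalized CPM (linear axes from 0) of each of the 10 regulators in each of the 4 PBS-injected and 4 LLC1-injected mice, 1 symbol per mouse, with the mean ± SD in black. The LLC1 and PBS points are separated for Esrra and Esrrb, and the point of PBS 1-1 lies far above its group for Gabpa.

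Among the coactivators, Ppargc1a, at chr5:51454249-51567725 in mm10, encodes PGC-1α, the inducible coactivator of the network. Its level was 133.5, 164.9, 172.1 and 135.4 CPM in LLC1 mice 1-2, 1-3, 1-5 and 2-2, and 138.3, 126.1, 128.1 and 104.3 CPM in PBS mice 1-1, 1-3, 2-1 and 2-5. LLC1 mice 1-3 and 1-5 lay above all PBS mice, whereas the lowest LLC1 mice lay below PBS 1-1, so the groups overlapped. The means were 151.5 ± 19.9 and 124.2 ± 14.3 CPM (SD, n = 4 each), a log2 fold change of 0.29 (SE 0.10). The edgeR FDR was 0.108 and the exact two-sided permutation p was 0.0857, where the smallest p that 70 arrangements allow is 0.0286. The 95% interval of the fold was 1.04 to 1.43. The FDR was 0.0472 without PBS 1-1 and 0.0496 with gene length offsets, and in 15 further fits it ranged from 0.0534 to 0.257, with 0.419 under scaling to the cardiomyocyte markers.

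Ppargc1b, at chr18:61298136-61400431, encodes PGC-1β, the paralog that sustains mitochondrial gene expression at baseline. Its level was 36.52, 38.72, 36.87 and 33.86 CPM in the LLC1 mice and 36.89, 34.77, 44.2 and 28.98 CPM in the PBS mice, each in the order used above. The highest and the lowest values were both in PBS mice, and the LLC1 mice lay between them. The log2 fold change was 0.01 (SE 0.11, edgeR FDR 0.968), with an interval of the fold from 0.854 to 1.19. Counts are per gene, so the isoforms of either coactivator were not told apart.

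Perm1, at chr4:156215868-156221307, encodes the muscle-specific partner of these coactivators. Its level was 456.3, 485.9, 490.5 and 439.6 CPM in the LLC1 mice and 470.8, 451.2, 455.1 and 401.7 CPM in the PBS mice. The groups overlapped, with 3 PBS mice inside the LLC1 range and PBS 2-5 below every other mouse. The log2 fold change was 0.07 (SE 0.07, edgeR FDR 0.535), and the interval of the fold was 0.949 to 1.17. Scaling the libraries to the cardiomyocyte markers moved the median of all genes to -0.18. Under it Perm1 had a log2 fold change of -0.10 (FDR 0.30) and Ppargc1b one of -0.16 (FDR 0.303), which relative to that median were 0.08 and 0.02. Rescaling whole libraries moves all genes by about the same amount. Differences from the median therefore hardly change with scaling, here and below, and do not test a call.

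Of the estrogen-related receptors, Esrra, at chr19:6910977-6921813, encodes ERRα, a main DNA-binding partner of PGC-1α at respiratory chain genes. Its level was 195.7, 190, 205.8 and 179.8 CPM in the LLC1 mice and 172.6, 157.2, 158.4 and 159.7 CPM in the PBS mice. Every LLC1 mouse lay above every PBS mouse, and PBS 1-1 was the PBS mouse nearest to them. The means were 192.8 ± 10.9 and 162 ± 7.18 CPM (SD, n = 4 each), a log2 fold change of 0.25 (SE 0.06, edgeR FDR 0.0302), with an interval of the fold from 1.08 to 1.31 and an exact permutation p of 0.0286, the smallest possible.

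Esrrb, at chr12:86361117-86521628, encodes ERRβ, which is best known from embryonic stem cells and is also present in heart. Its level was 34.86, 40.69, 45.74 and 37.69 CPM in the LLC1 mice and 33.55, 31.83, 31.25 and 29.75 CPM in the PBS mice. The groups did not overlap, although LLC1 1-2 lay close to PBS 1-1. The means were 39.7 ± 4.65 and 31.6 ± 1.57 CPM (SD, n = 4 each), a log2 fold change of 0.33 (SE 0.09, edgeR FDR 0.0352), with an interval of the fold from 1.105 to 1.437 and an exact permutation p of 0.0286.

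Both calls changed with the mice used and with the scaling. With 1 mouse left out, Esrra stayed called in 3 of 8 fits (FDR 0.0116 to 0.101) and was lost without LLC1 1-2, 1-3 or 1-5 or PBS 1-3 or 2-1. Esrrb stayed called in 2 of 8 fits (FDR 0.02 to 0.102) and was lost without any of the mice other than LLC1 1-2 and PBS 1-1. The log2 fold change ranged from 0.22 to 0.28 for Esrra and from 0.26 to 0.39 for Esrrb in these fits. With total-count scaling the log2 fold changes were 0.20 for Esrra (FDR 0.0679) and 0.28 for Esrrb (FDR 0.076), or 0.26 and 0.34 relative to the median of all genes, which lay at -0.06 there. When libraries were scaled to the summed cardiomyocyte markers, Esrra had a log2 fold change of 0.08 (FDR 0.323) and Esrrb one of 0.16 (FDR 0.179). Relative to the median of all genes under that scaling, -0.18, the differences were 0.26 and 0.34. They were also 0.26 and 0.34 in the reported fit, since rescaling moves all genes about alike, and they do not test the calls.

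Esrrg, at chr1:187608791-188214885, encodes ERRγ, which drives oxidative metabolism in heart and slow muscle. Its level was 43.66, 52.08, 54.21 and 45.18 CPM in the LLC1 mice and 59.2, 50.06, 50.79 and 40.73 CPM in the PBS mice. PBS mice held both the highest and the lowest value, and the log2 fold change was -0.04 (SE 0.11, edgeR FDR 0.864), with an interval of the fold from 0.827 to 1.15. Without PBS 1-1 it was 0.05.

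The receptors were also compared within each mouse. The log2 ratio of Esrrb to Esrrg was -0.30 ± 0.05 in the LLC1 mice and -0.66 ± 0.15 in the PBS mice (SD, n = 4 each), a difference of 0.36 with groups that did not overlap. The log2 ratio of Esrra to Esrrg differed by 0.29 and that of Ppargc1a to Ppargc1b by 0.26, both with overlapping groups, and that of Esrra to Esrrb by -0.07. The exact permutation p-values of these 4 ratios were 0.0286, 0.0857, 0.0571 and 0.371, and after adjustment over the 4 they were 0.114, 0.114, 0.114 and 0.371, so none passed the adjusted threshold. A single separated ratio could not have passed it, since the smallest exact p of 0.0286 adjusts to 0.114 when the other ratios are larger. Per length, ERRα transcripts made up 82.8 ± 1.2% of the summed CPM per kilobase of the receptors in PBS mice and 84.0 ± 1.2% in LLC1 mice (SD, n = 4 each, exact permutation p 0.171). With the exon lengths of GENCODE M21, in which Esrra is longer, these shares were 73.6 ± 1.68% and 75.3 ± 1.67%.

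Ppara, at chr15:85734983-85802819, encodes PPARα, the fatty acid sensor that turns on genes of fatty acid oxidation. Its level was 48.16, 49.58, 52.79 and 41.31 CPM in the LLC1 mice and 46.42, 43.47, 38.55 and 40.14 CPM in the PBS mice. LLC1 mice 1-2, 1-3 and 1-5 lay above every PBS mouse and LLC1 2-2 lay among them. The log2 fold change was 0.19 (SE 0.09, edgeR FDR 0.201), with an interval of the fold from 0.999 to 1.30. It was 0.02 (FDR 0.905) under scaling to the cardiomyocyte markers, or 0.20 relative to the median of all genes.

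Among the respiratory factors, Nrf1, at chr6:30047988-30153458, encodes nuclear respiratory factor 1, not the stress factor Nfe2l1 that is sometimes given the same name. Its level was 18.06, 15.28, 13.62 and 15.14 CPM in the LLC1 mice and 15.79, 15.49, 13.42 and 17.06 CPM in the PBS mice. The ranges lay almost on each other, and the log2 fold change was 0.01 (SE 0.11, edgeR FDR 0.980), with an interval of the fold from 0.855 to 1.18. Under marker scaling it was -0.16, or 0.02 relative to the median of all genes. The order of the mice was not that of the other members, since LLC1 1-5 was the highest LLC1 mouse for 8 members and the lowest for Nrf1.

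Gabpa, at chr16:84834925-84863779, encodes the DNA-binding subunit of GABP, also called nuclear respiratory factor 2. Its level was 74.02, 71.64, 74.73 and 72.05 CPM in the LLC1 mice and 104.8, 70.6, 73.27 and 67.12 CPM in the PBS mice. A single library, PBS 1-1, lay above the rest. The log2 fold change was -0.11 (SE 0.12, edgeR FDR 0.611, interval of the fold 0.776 to 1.11) and became 0.06 without PBS 1-1. Its exons share 6.98% of their bases with Atp5j on the opposite strand, and since the strand setting of the counting is not given in the sources used here, reads of these genes cannot be fully separated. Atp5j, a subunit of ATP synthase, had 648.3 CPM in PBS 1-1 and between 545.8 and 686.6 CPM in the other mice.

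Tfam, at chr10:71225464-71238280, encodes the factor that packages mitochondrial DNA and helps to start its transcription. Its level was 37.71, 35.29, 38.62 and 37.23 CPM in the LLC1 mice and 41.96, 38.28, 42.02 and 35.54 CPM in the PBS mice. PBS 1-1 and PBS 2-1 lay above all LLC1 mice, while PBS 2-5 lay near the lowest LLC1 mouse. The log2 fold change was -0.08 (SE 0.07, edgeR FDR 0.512), with an interval of the fold from 0.846 to 1.05, and without PBS 1-1 it was -0.05. Under scaling to the cardiomyocyte markers it was -0.25 (FDR 0.0259), or -0.07 relative to the median of all genes. The genes carried by mitochondrial DNA could not be compared, because all 37 were listed with 0 counts in every mouse.

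**Figure D2:**
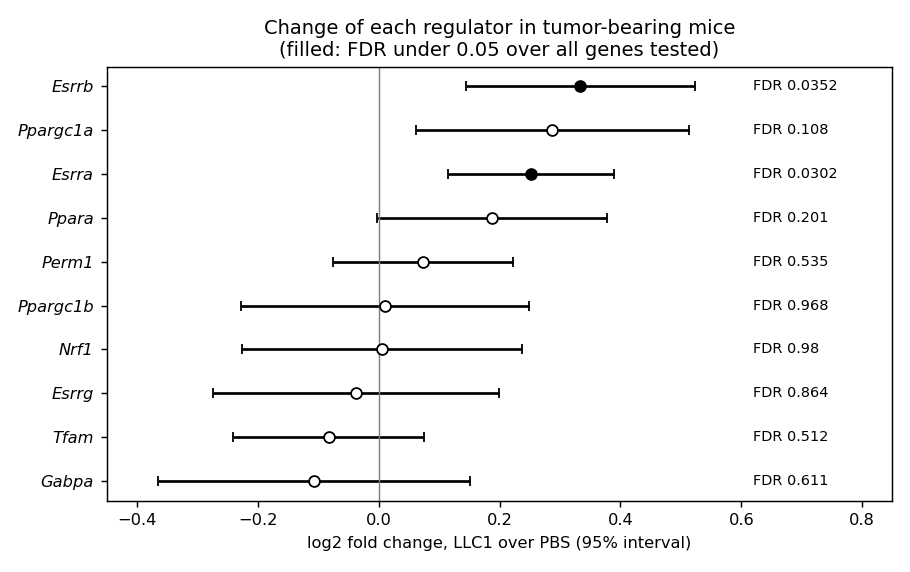
Log2 fold change of each regulator, LLC1 over PBS (n = 4 each), with its 95% interval and its edgeR FDR over 16111 genes. Filled points mark the called members, Esrrb at 0.33 and Esrra at 0.25, and the other 8 are open, with intervals that include 0 for all but Ppargc1a.

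Levels were set against each other per kilobase of the gene length in the count table. In the PBS mice Perm1 was highest at 114 CPM per kilobase, followed by Esrra at 63.8, Ppargc1a at 18.7, Gabpa at 13.9, Ppara at 10.99, Ppargc1b at 9.08, Tfam at 8.89, Esrrg at 8.09, Esrrb at 5.22 and Nrf1 at 1.502. The ranges over PBS mice did not overlap between Perm1, Esrra and Ppargc1a, or between Esrrg, Esrrb and Nrf1. From Ppargc1a down to Esrrg, the range of each gene overlapped with that of the next. Genes farther apart in that stretch could be separated, since the PBS range of Ppargc1a (15.7 to 20.8) lay above those of Ppara, Ppargc1b, Tfam and Esrrg, and the range of Gabpa (11.8 to 18.4) lay above those of Ppargc1b, Tfam and Esrrg. The Esrra length depends on the annotation, and with its exons in GENCODE M21 its level was 36.9, still between Perm1 and Ppargc1a.

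**Figure D3:**
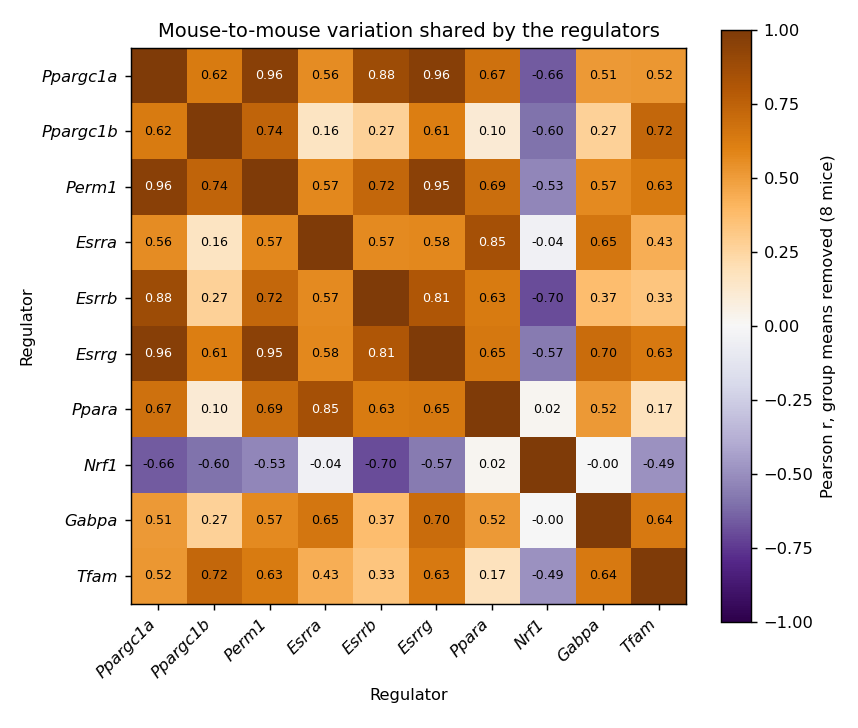
Pearson r between each pair of regulators over 8 mice, computed on log2 CPM after subtracting each group's mean. Ppargc1a, Perm1 and Esrrg form a block of values between 0.95 and 0.96, and the negative values are all in the row and column of Nrf1.

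Within the groups, many members varied together from mouse to mouse, as the map of correlations shows. Over the 45 pairs the median r was 0.57 once group means were removed (n = 8 mice), with 28 pairs above 0.5. The highest values joined Ppargc1a with Esrrg (0.96), Ppargc1a with Perm1 (0.96) and Perm1 with Esrrg (0.95). The 5 pairs below -0.5 all included Nrf1. Without PBS 1-1 the median r was 0.49, with 20 pairs above 0.5 and 7 below -0.5, all with Nrf1, and Gabpa with Tfam went from 0.64 to 0.96. These values come from the same 8 libraries and share their depth and scaling, and the same mice were often at the extremes: PBS 1-1 was the highest PBS mouse for 7 members and PBS 2-5 the lowest for 7.

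Of the 11368 genes with a mean of at least 5 CPM, those most like Ppargc1a over the 8 mice were Tmem106b (r 0.99), Plbd1 (r 0.97) and Hsdl2 (r 0.96). For Esrra they were Got1, the cytosolic aspartate aminotransferase (r 0.99), Hrc, a calcium-binding protein of the sarcoplasmic reticulum (r 0.98), and D10Jhu81e (r 0.97). With group means removed, the 6 values were between 0.92 and 0.98.

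The genes around the regulators were described in 5 lists. Of the upstream signals and co-regulators of the PGC-1 coactivators, 45 of 46 were tested, 4 were called higher (8.89%, against 4.12% of all genes) and 0 lower, and the median log2 fold change was -0.01, near that of all genes. Flcn, folliculin, which restrains AMPK and PGC-1α signaling, rose from 79.3 ± 3.34 to 120.3 ± 10.3 CPM (SD, n = 4 each, log2 fold change 0.60, edgeR FDR 0.00103). Hdac5, a class II histone deacetylase that represses MEF2-driven transcription, rose by 0.34 on the log2 scale (FDR 0.00701). Prkag1, a regulatory subunit of AMPK, rose by 0.27 (FDR 0.0118) and Stk11, the kinase LKB1 that activates AMPK, by 0.24 (FDR 0.0486). For each of these genes every LLC1 mouse lay above every PBS mouse.

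Of the 24 partner nuclear receptors and respiratory factor partners, all tested, 1 was called higher (4.17%, against 4.12% of all genes) and 0 lower, with a median log2 fold change of 0.10. Klf15, a Krüppel-like factor that acts in cardiac lipid use, was at 100.2, 109.6, 114.5 and 103 CPM in the LLC1 mice and 56.46, 70.53, 53.73 and 73.61 CPM in the PBS mice. The groups were far apart (log2 fold change 0.75, SE 0.10, edgeR FDR 0.00167). The GABP partner subunits Gabpb1 and Gabpb2 had log2 fold changes of -0.27 (FDR 0.12) and -0.18 (FDR 0.0863), and the retinoid receptor Rxra, which pairs with PPARα, had one of 0.13 (FDR 0.233).

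Of the 35 genes of mitochondrial DNA maintenance and transcription, all tested, 5 were called higher (14.3%, against 4.12% of all genes) and 0 lower, with a median log2 fold change of 0.05. Hsd17b10, a subunit of mitochondrial RNase P, rose by 0.37 on the log2 scale (edgeR FDR 0.0155). Slc25a33, a pyrimidine nucleotide carrier, rose by 0.35 (FDR 0.04996, with overlapping groups), and Elac2, which trims mitochondrial tRNAs, by 0.27 (FDR 0.0341). Without PBS 1-1 the FDR of Slc25a33 was 0.0602. The protease genes Clpx and Lonp1 were also called (Lonp1 at an FDR of 0.0538 without PBS 1-1), and the polymerase genes were not, with Polrmt at 0.26 (FDR 0.0633) and Polg at 0.17 (FDR 0.143).

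Of the PPARα target genes, 28 of 31 were tested, 11 were called higher (39.3%, against 4.12% of all genes) and 0 lower, and the median log2 fold change was 0.21. Slc27a1, a fatty acid transporter, rose from 211.8 ± 37.3 to 318.8 ± 15.6 CPM (SD, n = 4 each, log2 fold change 0.59, edgeR FDR 0.00694). Acot1, an acyl-CoA thioesterase, rose by 0.51 on the log2 scale (FDR 0.00323) and Ech1, an auxiliary enzyme of β-oxidation, by 0.41 (FDR 0.00785). Cpt1b, which admits fatty acids to mitochondria in muscle, was at 967.7, 1005, 980.6 and 949.5 CPM in the LLC1 mice and at 760.8, 783.6, 776.3 and 791.9 CPM in the PBS mice. The groups were well separated, with a log2 fold change of 0.33 (FDR 0.00649). Pdk4, a kinase that inhibits pyruvate dehydrogenase and a widely used reporter of PPARα, had a log2 fold change of 0.47 that did not pass (FDR 0.315), and 0.24 without PBS 1-1.

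Of the 39 target genes of the estrogen-related receptors and nuclear respiratory factors, all tested, 14 were called higher (35.9%, against 4.12% of all genes) and 0 lower, with a median log2 fold change of 0.16. Of the 39, 5 stand in the study's own tables (Cox6a2, Cox8b, Sdhb, Ndufs7 and Ndufv1), which were chosen on these samples, so their direction is not independent evidence. Ndufs7, a complex I subunit, rose by 0.43 on the log2 scale (edgeR FDR 0.015), Cox6a2, the muscle form of a cytochrome oxidase subunit, by 0.40 (FDR 0.0143) and Cox4i1, another subunit of that enzyme, by 0.34 (FDR 0.0157). Further calls included Ndufv1, Slc25a4, Cox8b, Ckm, Sdhb, Cyc1, Atp5b, Sdha, Atp5a1 and Uqcrc1. Cycs, cytochrome c and a classic NRF1 target, had a log2 fold change of -0.26 (FDR 0.213) and Cox7a1 one of -0.22 (FDR 0.195). Without PBS 1-1 these were -0.11 and -0.12.

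**Figure D4:**
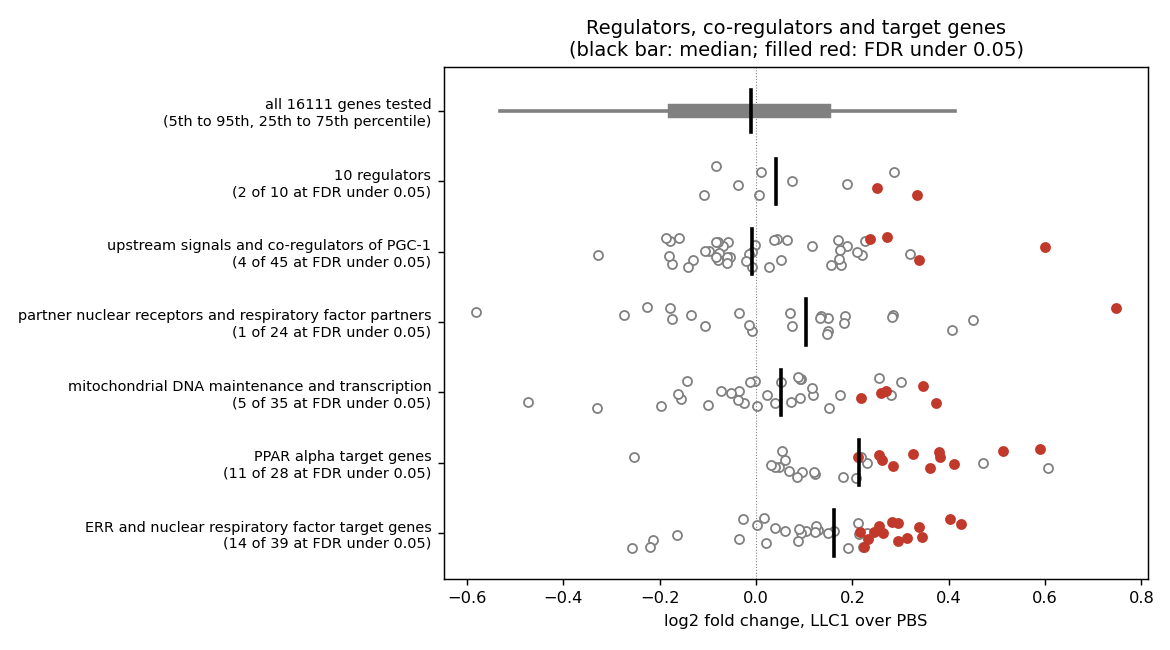
Log2 fold change (LLC1 over PBS, n = 4 each) of the 10 regulators and of the genes tested in each of the 5 lists, 1 point per gene, with called genes filled and medians as black bars; the top row gives the percentiles of all 16111 genes tested. The medians are 0.21 for PPARα targets and 0.16 for targets of the estrogen-related receptors and nuclear respiratory factors, against -0.01 for all genes.

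The list counts changed with the mice used and with the scaling. With 1 mouse left out, the called targets of the estrogen-related receptors and nuclear respiratory factors numbered 1 (without PBS 1-3) to 19 (without PBS 1-1), the PPARα targets 7 to 14, and the mitochondrial DNA genes 0 to 6. The share of all genes called higher moved too, from 1.3% without PBS 1-3 to 5.56% without PBS 1-1. With total-count scaling the called genes were 1 of the 39 receptor and respiratory factor targets and 7 of the 28 PPARα targets, against 1.4% of all genes called higher and 4.92% lower. Under scaling to the cardiomyocyte markers, 1.12% of all genes were called higher and 22.3% lower. In that fit 6 PPARα targets were called higher (21.4%) and 0 lower. The receptor and respiratory factor targets had 0 called higher and 4 lower (10.3%), and the mitochondrial DNA genes 0 higher and 6 lower (17.1%), both below the share of all genes called lower. The upstream signals and co-regulators had 1 called higher and 14 lower (31.1%), and the partners 1 higher and 3 lower (12.5%).

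**Figure D5:**
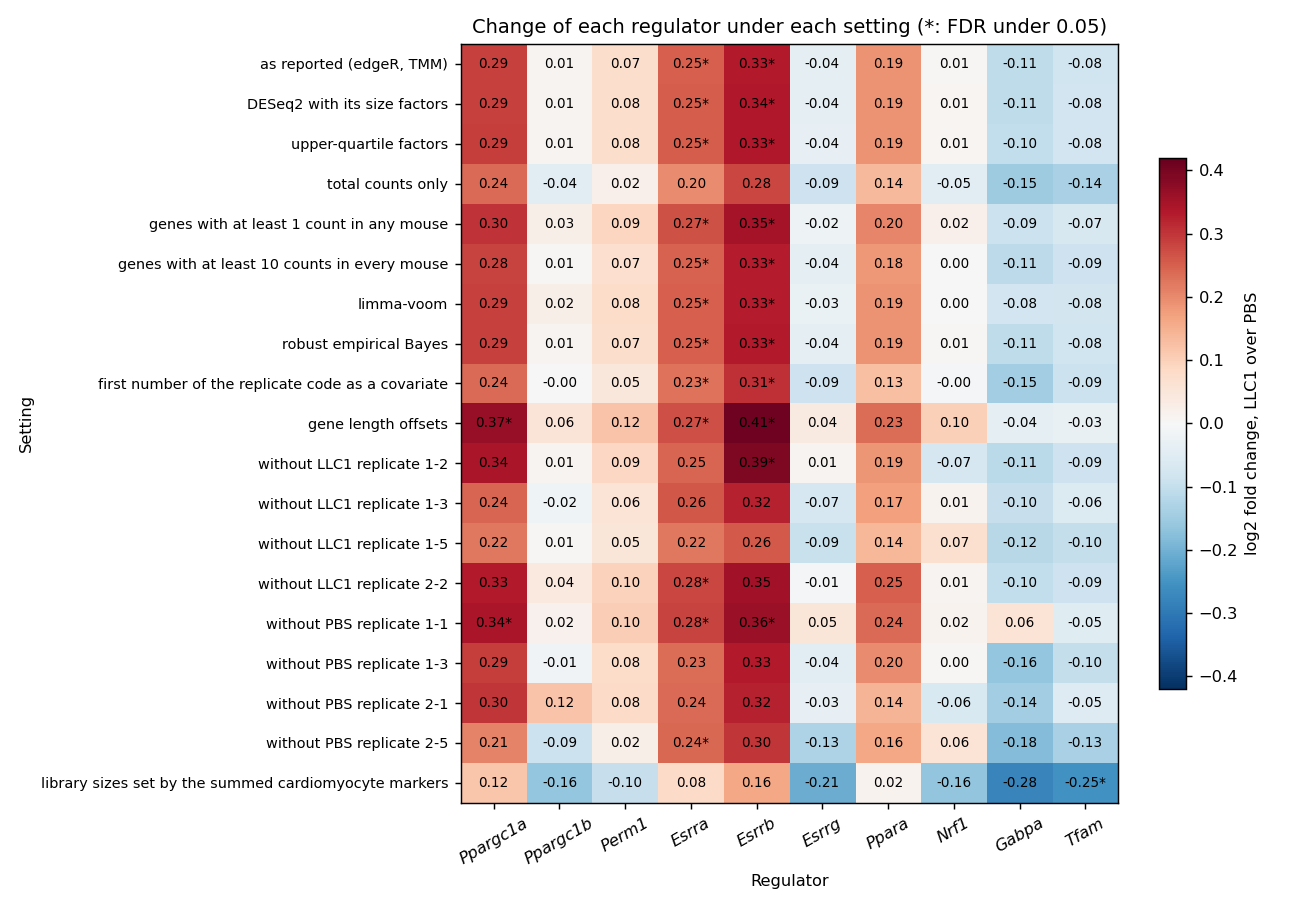
Log2 fold change (LLC1 over PBS) of each regulator (columns) under the reported fit and each other setting (rows), as color and number, with an asterisk where the FDR was under 0.05. Esrra and Esrrb are positive in every row, with 0.08 and 0.16 in the marker-scaled row, and Ppargc1a has an asterisk only with gene length offsets and without PBS 1-1.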

How the data were processed

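RNA was sequenced from the ventricles of 8 mice, each sample being taken as 1 mouse from its own replicate code, and p-values measure the spread between these samples. The authors deposited raw counts of reads per gene, made from 150-base paired reads aligned to mm10 and not normalized. The submitters' processing notes name CASAVA, STAR and featureCounts, whose versions, annotation and strand setting are not given in the sources used here. Groups were taken from the treatment label and mice are named by their replicate codes. Counts were filtered with filterByExpr, scaled with TMM and tested with edgeR 4.0.16 in R 4.3.3 (glmQLFTest, Benjamini-Hochberg over 16111 genes, FDR under 0.05). Intervals are 95% from the fitted t distribution. Single genes also had an exact two-sided permutation test over 70 arrangements of log2 CPM (prior count 2). Alternatives were DESeq2 1.42.0, limma-voom (limma 3.58.1), upper-quartile and total-count scaling, filters of 1 count in any mouse or 10 in every mouse, robust fitting, a covariate for the leading digit in each replicate code, gene length offsets (loess span 0.3), each mouse left out, and libraries scaled to 10 cardiomyocyte markers. The steps were tested on simulated data. Promoter windows came from RefSeq, and exon overlaps from GENCODE M21 (BLAST 2.17.0 for similar transcripts, at least 97% identity over 150 bases). Figures were drawn with matplotlib 3.10.9. Members and lists were chosen with earlier results of these data known. All members are named, and of each list the called genes with the 3 largest changes in a direction, with others named by role. Echocardiography, protein and respiration data were not analysed here. Values of some single list genes are not reported here, while the counts include them.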

Additional observations from a re-analysis of the deposited data

Results flagged for a closer look

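Of the members' values in the 2 groups, 2 lay far from the rest of their group by Dixon's ratio of gap to range, both in the library of PBS 1-1. Gabpa stood at 104.8 CPM in PBS 1-1 against 67.1 to 73.3 CPM in the other PBS mice, a gap of 0.837 of the range, and its log2 fold change went from -0.11 to 0.06 without that mouse. Esrra stood at 172.6 CPM in PBS 1-1 against 157.2 to 159.7 CPM in the other PBS mice, a gap of 0.839 of the range, and remained below every LLC1 mouse. Without that mouse the edgeR FDR of Esrra was 0.0116. Chance alone flags about 1 in 20 groups, and 20 groups were examined.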

How the results depend on the processing

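Counts of calls changed with the mice used and with the scaling. Members called higher numbered 2, and 0 to 3 with 1 mouse left out, 0 with total-count scaling and 0 with cardiomyocyte-marker scaling, an alternative chosen after seeing the data, under which 1 (Tfam) was called lower. For all genes, 663 were called higher and 743 lower, 212 to 908 and 330 to 1041 with 1 mouse left out, 225 and 793 with total counts, 975 and 619 with length offsets, and 180 and 3597 with marker scaling. The upstream and co-regulator list had 3 to 5 calls with 1 mouse left out, 2 with total counts, 9 with length offsets and 15 with marker scaling. The partner list had 1 to 3 with 1 mouse left out, 3 with the replicate-code covariate, 3 with length offsets and 4 with marker scaling. The mitochondrial DNA list had 0 to 6, then 3 with upper-quartile factors, 1 with total counts and 8 with length offsets. PPARα targets had 7 to 14, 7 with total counts and 6 with marker scaling, and receptor and respiratory factor targets 1 to 19, 1 and 4. The cause of these shifts was not tested.

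Signs turned for 4 uncalled members in the fits other than marker scaling. With total counts the log2 fold change was -0.044 for Ppargc1b and -0.049 for Nrf1, with the covariate -0.0023 and -0.0045, and with length offsets 0.036 for Esrrg. With marker scaling it was -0.16 for Ppargc1b, -0.10 for Perm1 and -0.16 for Nrf1, and relative to the median of all genes there (-0.18), a difference that scaling hardly changes, 0.02, 0.08 and 0.02. With 1 mouse left out it ranged from -0.091 to 0.12 for Ppargc1b, from -0.13 to 0.049 for Esrrg, from -0.071 to 0.066 for Nrf1 and from -0.18 to 0.056 for Gabpa. No paired analysis was possible because the groups share a single replicate code, 1-3, which is borne by different mice.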

Other observations

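The AMPK subunits, which sit upstream of PGC-1α, were listed as 6 genes, of which Prkag1 alone was called (higher), where 4.12% of all genes were called higher and 4.61% lower. Prkag1 was at 111.3, 107, 105.7 and 104.5 CPM in the LLC1 mice against 87.69, 89.25, 88.69 and 89.13 CPM in the PBS mice. The catalytic subunits Prkaa1 and Prkaa2 had log2 fold changes of -0.17 (edgeR FDR 0.191) and -0.14 (FDR 0.388, and -0.06 without PBS 1-1), and the scaffold subunits Prkab1 and Prkab2 had 0.22 (FDR 0.135) and -0.08 (FDR 0.541). The regulatory subunit Prkag2 had -0.08 (FDR 0.516). Differences between the subunits were not tested.

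The spread among mice was unequal across the members. Gabpa had a coefficient of variation of 22.1% in the PBS mice and 2.05% in the LLC1 mice, and the PBS value was 4.38% without PBS 1-1. Ppargc1b had 17.4% in the PBS mice (21.3% without PBS 1-1) and 5.48% in the LLC1 mice. Esrrb went the other way, with 4.97% in the PBS mice (3.47% without PBS 1-1) and 11.7% in the LLC1 mice. Esrra had 4.42% in the PBS mice (0.789% without PBS 1-1) and 5.63% in the LLC1 mice. With 4 mice per group these spreads were not tested against each other.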
